A study of Homo sapiens with 2 samples.

Results

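Nonsense-mediated decay factors are the proteins that find messenger RNAs with a premature stop codon and send them for destruction. The 9 factors described here were taken by gene symbol, with earlier results of these data known: UPF1, UPF2, UPF3A, UPF3B, SMG1, SMG5, SMG6, SMG8 and SMG9, of 55773 annotated symbols present in both tables. They were measured by RNA-seq in NCI-H2030, an established human lung adenocarcinoma cell line. One library came from cells treated with SC and 1 from cells treated with miR-494-3p AS, called SC and AS here. The labels spell out neither abbreviation and give no other agent, dose or time. With 1 library per group there was no test, p-value or replicate error, and the values compare these 2 libraries rather than the treatments.

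When a ribosome stops well upstream of the end of a transcript, the RNA helicase UPF1 is held at the stop codon by the release factors. UPF2 and UPF3B link UPF1 to an exon junction complex left downstream by splicing, and the kinase SMG1 phosphorylates UPF1 under the control of SMG8 and SMG9. Phosphorylated UPF1 then recruits SMG6, which cuts the transcript near the stop codon, and SMG5, which helps bring in deadenylation and decapping enzymes. Several of these factors are themselves encoded by transcripts that the pathway degrades.

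The treatment label of the AS library names miR-494-3p, a microRNA whose mature sequence in RefSeq (GRCh38.p14) is shown with its seed, bases 2 to 8, in capitals.
miR-494-3p: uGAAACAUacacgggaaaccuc
The whole seed pairs with ATGTTTC. The form TGTTTCA pairs with bases 2 to 7 and ends in an A opposite base 1, and the 8-base ATGTTTCA joins both. These forms were searched on the sense strand of the 3' UTR of each gene, taken as the longest in GENCODE release 29. A 7-base match inside an 8-base match was counted once. Of the 9 factors, 3 held a match, and each match is shown in a window of 30 bases. Only the 8-base match in UPF2 covers the whole seed. The other matches, in UPF2, SMG1 and SMG9, have the form TGTTTCA.
UPF2, bases 589 to 595 of a 3' UTR of 1276 bases: gtttaggaattTGTTTCAagaggaacaagg
UPF2, bases 1137 to 1144: tttcttttaccATGTTTCAgtttctgcatg
SMG1, bases 1997 to 2003 of 4716: atgaaagaatgTGTTTCAgtatcagtgctt
SMG9, bases 1494 to 1500 of 3604: tacagccctggTGTTTCAtaccatggggat
Capitals mark the matched bases. Among 10564 measured coding genes with an annotated 3' UTR, 27.7% held any of these matches and 6.41% the 8-base form. UPF3B, UPF3A, UPF1, SMG5, SMG6 and SMG8 held none of these letters in the UTR searched. A match is a description of sequence and was not tested as a site.

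All 9 factors had a higher deposited TPM in AS than in SC. TPM is a transcript level scaled for transcript length and library size. Among the bridging proteins UPF3B was 4.94-fold, UPF2 4.44-fold and UPF3A 2.43-fold higher, whereas UPF1, SMG5, SMG6, SMG8 and SMG9 were 1.34-fold to 1.85-fold higher. The kinase SMG1 was 3.52-fold higher, between UPF2 and UPF3A in order, at levels close to the lower limit of measurement in both libraries. Summed over the 9 factors the level was 287 TPM under SC and 483 TPM under AS, and without SMG5, the most abundant factor, 124 and 251 TPM.

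**Figure D1:**
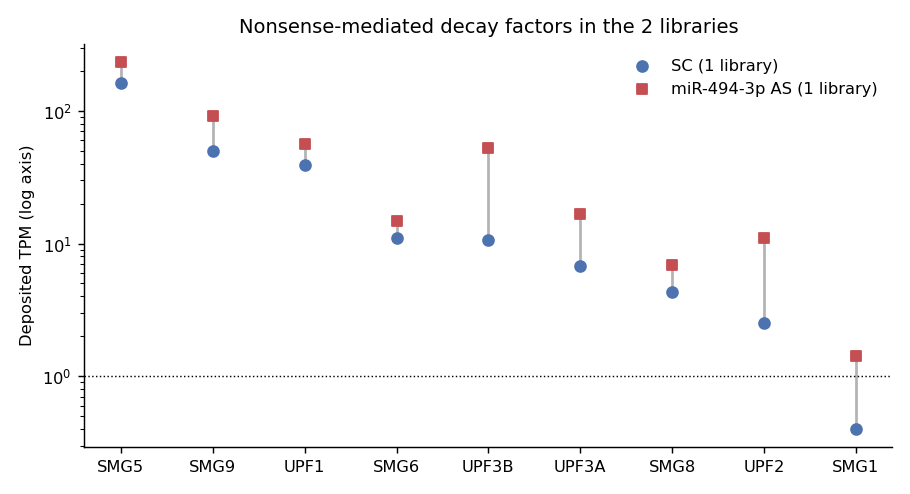
Deposited TPM of each nonsense-mediated decay factor (log axis) in the SC library (circles) and the AS library (squares), ordered by the SC level, with a dotted line at 1 TPM. Every square lies above its circle; the widest gaps belong to UPF3B (10.6 and 52.1 TPM) and UPF2 (2.50 and 11.1 TPM).

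For each gene the ratio was taken as log2((AS + 1)/(SC + 1)) on TPM, which understates the ratio of low levels, and a gene was called measured at a mean of at least 1 TPM over both libraries. Of the 9 factors 8 were measured, each with at least 1 TPM in both libraries; SMG1, with a mean of 0.910 TPM, was not. Of the 8, 3 were at least 2-fold higher in AS on this scale and none was 2-fold lower. Over the whole table, 16.5% of the 13669 measured genes passed 2-fold upwards and 2.17% downwards. The median log2 ratio was 0.72 over the 8 factors and 0.28 over all measured genes, and 66.2% of all measured genes were higher in AS. Relative to that median the 8 factors stood at 0.44. In coverage, described below, 3 of the 8 were again at least 2-fold higher and none was lower, beside 13.9% and 2.38% of all measured genes. In the loci assembled from the reads 1 of the 8 was higher and none was lower, beside 16.1% and 2.88% of 13276 genes with a locus in both libraries.

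Gene coordinates are given as deposited; none of the 9 starts is the GRCh38 start in GENCODE release 29, and the build they belong to was not established. UPF3B (ENSG00000125351, chromosome X, 118967985 to 118986961, minus strand), the adaptor that ties the exon junction complex to UPF2, stood at 10.6 TPM under SC and 52.1 TPM under AS, a log2 ratio of 2.20. It lay at percentile 98.8 of all measured genes. The deposited coverage, a signal of read depth given for each row, was 17.9 in SC and 80.4 in AS. Coverage was also compared after division by the coverage per FPKM of each library (3.62 in SC, 3.54 in AS), with 0.1 added, which puts it on the scale of FPKM, the fragment count scaled for length and library size. On that scale the log2 ratio of UPF3B was 2.18, at percentile 99.3. UPF3B was the factor with the largest ratio in both columns. Its FPKM was 5.34 under SC and 24.5 under AS. FPKM is the TPM divided by 1.98 in SC and by 2.13 in AS. Its log2 ratios also have 1 added, which weighs more on these smaller values. With this and the larger divisor in AS they are lower throughout. They were 2.01 for UPF3B, 1.46 for UPF2, 0.98 for UPF3A and 0.27 to 0.76 for the other 6 factors.

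UPF3A (ENSG00000169062, chromosome 13, 115047059 to 115071283, plus strand), the autosomal paralog of UPF3B, was at 6.80 TPM under SC and 16.5 TPM under AS, a log2 ratio of 1.17. Its ratio in coverage was 1.18. The locus assembled from the reads at UPF3A stood at 12.4 TPM under SC and 20.7 TPM under AS, a log2 ratio of 0.70, so the gene was under 2-fold there. It was also under 2-fold relative to the median of all measured genes (0.89). UPF3B was 1.55 times as abundant as UPF3A in SC and 3.15 times in AS. In coverage this ratio was 1.97 in SC and 3.92 in AS. Reads from the 3 annotated UPF3A pseudogenes were few, with summed levels of 0.231 TPM under SC and 0.877 TPM under AS.

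UPF2 (ENSG00000151461, chromosome 10, 11962021 to 12085169, minus strand), the protein that joins UPF1 to the UPF3 proteins, was at 2.50 TPM under SC and 11.1 TPM under AS, a log2 ratio of 1.79 (percentile 96.9). Its coverage was 4.58 and 16.5, with a log2 ratio of 1.80. The assembled loci showed how differently the gene was filled in the 2 libraries. In SC the reads formed 4 separate loci that together spanned 49.7% of the gene, at 0.591 to 5.59 TPM, with the highest at the 3' end and none over the middle of the gene. In AS they formed 1 locus over 99.7% of it at 11.1 TPM. Compared with the longest SC fragment, that is a log2 ratio of 0.88. UPF2 amounted to 0.0643 of the UPF1 level in SC and 0.196 in AS.

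UPF1 (ENSG00000005007, chromosome 19, 18942747 to 18979045, plus strand), the helicase at the centre of the pathway, was at 38.8 TPM under SC and 56.5 TPM under AS, a log2 ratio of 0.53. Its coverage was 17.0 and 22.4, with a log2 ratio of 0.42, and its assembled locus was at 38.8 and 56.5 TPM. UPF1 stood 0.25 above the median of all measured genes in TPM.

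**Figure D2:**
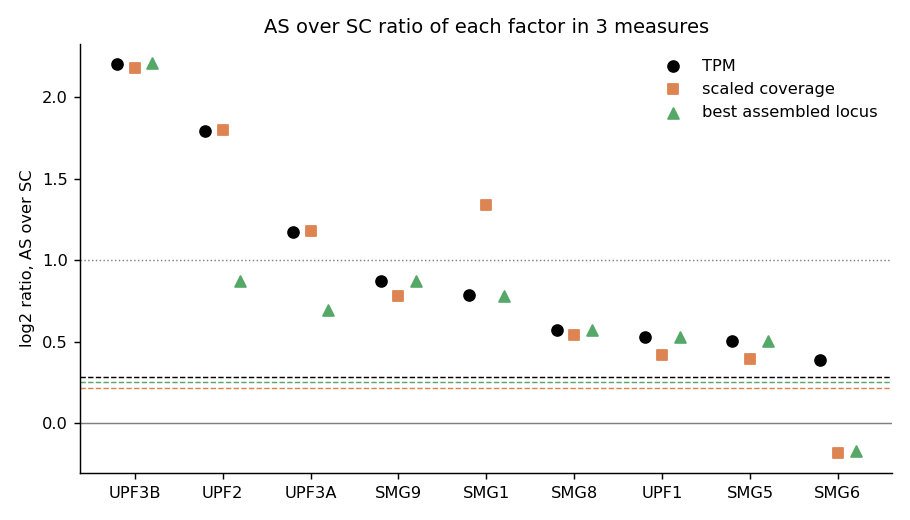
The log2 ratio of AS over SC for each factor in TPM (circles), scaled coverage (squares) and the best-overlapping assembled locus (triangles); dashed lines are the medians of all measured genes in the same colours, and the dotted line is 2-fold. UPF3B is past 2-fold in all 3 measures, UPF2 and UPF3A in TPM and coverage, and SMG1 in coverage only (1.34). SMG6 is above 0 in TPM (0.39) and below 0 in coverage (-0.18) and the assembled locus (-0.17).

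Among the proteins of the SMG1 kinase complex, SMG9 was the most abundant transcript. SMG9 (ENSG00000105771, chromosome 19, 44235301 to 44259142, minus strand), which binds SMG8 and with it restrains the kinase, stood at 49.7 TPM under SC and 91.8 TPM under AS, a log2 ratio of 0.87 in TPM and 0.78 in coverage. SMG8 (ENSG00000167447, chromosome 17, 57286761 to 57292608, plus strand) was at 4.27 and 6.83 TPM, with log2 ratios of 0.57 in TPM and 0.54 in coverage. The SMG9 transcript was 11.6 times as abundant as that of SMG8 in SC and 13.4 times in AS. A second annotated gene, CTD-2510F5.6, overlaps SMG8 on the same strand over 5827 bases and was at 6.20 and 11.2 TPM, so the split of reads between these genes is uncertain.

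SMG1 (ENSG00000157106, chromosome 16, 18816175 to 18937776, minus strand), the kinase itself, was at 0.402 TPM under SC and 1.42 TPM under AS, with a coverage of 0.738 and 2.36. Without a pseudocount the AS level was 3.52 times the SC level in TPM and 3.27 times in coverage. The log2 ratio was 0.79 in TPM, where the added 1 is larger than the SC level, and 1.34 in coverage. The assembled loci covered 9.33% of the gene in SC (3 loci) and 61.1% in AS (14 loci), and in each library the highest was at the 3' end, at 3.15 TPM under SC and 7.47 TPM under AS. SMG1 is uncertain for a second reason. The 8 annotated rows of its chromosome 16 copies and of a read-through gene with 1 of them summed to 41.0 TPM under SC and 57.3 TPM under AS, far above SMG1 itself. The sources used here do not say how reads that fit both were assigned. Named by their identifiers in GENCODE release 29, the read-through row BOLA2-SMG1P6 was at 24.0 and 23.0 TPM, whereas SMG1P1 was at 1.79 and 9.80 TPM and SMG1P5 at 2.55 and 5.05 TPM.

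**Figure D3:**
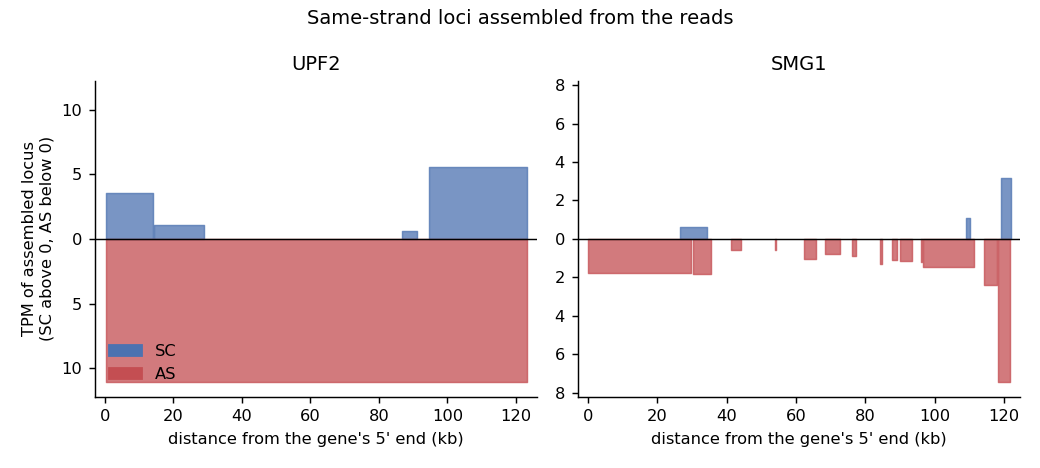
Loci assembled from the reads on the strand of UPF2 (left) and SMG1 (right) against the distance in kb from the 5' end of the annotated gene; the height is the TPM of the locus, SC above and AS below 0. UPF2 has 4 loci in SC and 1 in AS, and SMG1 3 in SC and 14 in AS, with the highest SC locus of both genes at the 3' end.

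SMG1 thus had more loci in AS and UPF2 fewer, and the other 7 factors had 1 locus in each library. Of all measured genes 9.10% had more same-strand loci in AS and 13.1% had fewer, so such a change was not particular to these genes.

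SMG5 and SMG6 act after UPF1 is phosphorylated. SMG5 (ENSG00000198952, chromosome 1, 156219015 to 156252620, minus strand), which helps recruit decay enzymes, was the most abundant factor, with 163 TPM under SC and 232 TPM under AS. It made up 56.8% of the summed TPM of the 9 factors in SC and 48.1% in AS. Its log2 ratio was 0.51 in TPM and 0.40 in coverage (247 and 318). SMG6 (ENSG00000070366, chromosome 17, 1963133 to 2207065, minus strand), the endonuclease, was at 11.0 TPM under SC and 14.7 TPM under AS, a log2 ratio of 0.39. Its coverage was lower in AS, at 1.76 in SC and 1.47 in AS (-0.18), and so was its assembled locus, at 16.6 and 14.6 TPM (-0.17). The direction for SMG6 therefore depended on the column. Scaled coverage amounted to only 8.75% of the FPKM of SMG6 in SC and 6.02% in AS, to 23.9% and 23.7% for UPF1, and to 82.5% and 82.1% for SMG5. The source of this difference between the columns was not tested.

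The order of the levels was SMG5, SMG9, UPF1, SMG6, UPF3B, UPF3A, SMG8, UPF2 and SMG1 in SC. In AS the 3 most abundant factors and SMG1 as the least abundant kept their places, UPF3B and UPF3A stood before SMG6, and UPF2 stood before SMG8. SMG6 and UPF3B had nearly the same level in SC (11.0 and 10.6 TPM). There were no replicates to say which neighbours differ beyond their spread.

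The 3 factors past 2-fold had a GC content below that of most coding genes. UPF2 (41.5%), UPF3B (42.1%), SMG1 (42.3%), SMG8 (46.9%) and UPF3A (46.9%) lay below the median of 50.9% over 10771 measured coding genes, and SMG6 (55.9%), SMG9 (57.5%), SMG5 (57.6%) and UPF1 (59.6%) above it. Over these coding genes the log2 ratio moved with GC content, from a median of 0.91 in the lowest of 10 equal GC groups to -0.29 in the highest. Each factor was therefore set beside the coding genes within 1 percentage point of its own GC content, as a description. UPF3B stood 1.35 above the median of its 921 neighbours, SMG9 0.90 above that of 788, UPF2 0.89 above that of 874, UPF1 0.65 above that of 776, UPF3A 0.57 above that of 749, SMG5 0.54 above that of 792 and SMG6 0.36 above that of 742. SMG8 (-0.03) and SMG1 (-0.05) stood at the median of theirs in TPM. SMG1 was not measured, and the added 1 understates its ratio. In coverage SMG8 stood 0.01 and SMG1 0.56 above the median of their neighbours. In TPM 7 of the 9 factors lay above the upper quartile of their neighbours, with SMG6 just inside (0.39 against a quartile of 0.37). In coverage 7 did as well, there with SMG1 (1.34 against 1.07) and without SMG6 (-0.18 against 0.24). The part of base composition in the ratios was not tested beyond these values.

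**Figure D4:**
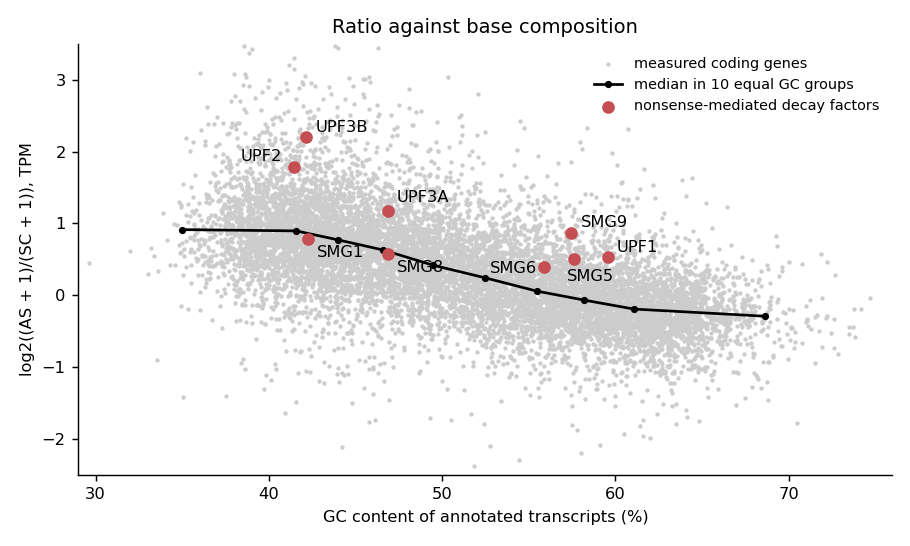
The log2 ratio in TPM against the GC content of the annotated transcripts for measured coding genes (grey), the 9 factors (red) and the median in each of 10 GC groups (black line, drawn at the middle of each range); 8 genes lie outside the plotted range. SMG8 and SMG1 lie at the black line and the other 7 factors above it.

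The longest annotated transcripts of the 9 genes had a median of 5348 bases, against 3416 over the measured coding genes. SMG1 was the longest at 16115 bases, and UPF3A (2423) and UPF3B (2378) were shorter than that median. Their 3' UTRs, a feature by which the pathway can recognise transcripts, had a median length of 1363 bases against 1210 over the measured coding genes. They ranged from 328 bases in SMG8 to 3604 in SMG9 and 4716 in SMG1, and UPF3B (856) and UPF3A (900) were among the shorter ones. Of 95 annotated transcripts of the 9 genes, 3 are classed in GENCODE as substrates of nonsense-mediated decay, 1 each in SMG1, SMG8 and SMG9. At least 1 such transcript was annotated for 44.2% of the measured coding genes. The deposited tables hold no levels per transcript, so these forms could not be followed.

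The rest of the pathway was described by 5 lists of 46 genes, all of which matched a row and 44 of which were measured. Of the 5 other decay factors reported, 0 were at least 2-fold higher and 0 2-fold lower, beside 16.5% and 2.17% of all measured genes. Their median log2 ratio was 0.27. PNRC2, a decapping adaptor, was at 6.13 TPM under SC and 11.9 TPM under AS (0.86). The ATPases RUVBL1 (84.1 and 106 TPM, 0.34) and RUVBL2 (237 and 286 TPM, 0.27) and the factors NBAS (5.30 and 5.98 TPM, 0.15) and DHX34 (24.8 and 26.6 TPM, 0.10) lay near the median of all genes. RUVBL2 was lower in AS in coverage (307 and 248, -0.27) and in its assembled locus (421 and 309 TPM, -0.44). NBAS was nearly level in coverage (0.08) and lower in its assembled locus (12.5 and 9.62 TPM, -0.34). RUVBL2, NBAS and DHX34 were also below 0 after centring on the median of all genes or trimmed mean scaling, and RUVBL1 after the latter.

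The genes of the exon junction complex were not all higher in AS. Of the 7, 2 were at least 2-fold higher and none 2-fold lower, beside 16.5% and 2.17% of all measured genes. The other 5 lay between, and the median was 0.86. Both paralogs of the MAGO subunit were the higher ones: MAGOH was at 29.4 TPM under SC and 73.7 TPM under AS (1.30) and MAGOHB at 9.23 and 28.9 TPM (1.55). MAGOH was under 2-fold after trimmed mean scaling (0.95). RBM8A, which encodes the Y14 partner of MAGOH, was instead lower in AS, at 100 and 71.5 TPM (-0.48), although its coverage was nearly level (109 and 101, -0.07). Its assembled locus was also lower in AS, at 294 TPM under SC and 198 TPM under AS (-0.57). The helicase subunit EIF4A3 was at 147 and 149 TPM (0.01; -0.10 in coverage), which is below the median of all genes. CASC3 was at 38.7 and 71.2 TPM (0.86) and RNPS1, an accessory protein, at 82.6 and 160 TPM (0.94). PYM1, listed under its older symbol WIBG, disassembles the complex and was lower in AS, at 40.9 and 30.8 TPM (-0.40; -0.63 in coverage). GC content was 41.7% for MAGOH and 38.3% for MAGOHB.

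Among the 5 genes of termination and poly(A) binding, 1 was at least 2-fold higher and none lower, beside 16.5% and 2.17% of all measured genes. The median of the list was 0.83. That median is the value of GSPT2, a low gene; over the members with a mean of at least 5 TPM it was 0.77, and in FPKM it was 0.52. The release factors eRF1 (ETF1, 25.4 TPM under SC and 55.4 TPM under AS, 1.09) and eRF3a (GSPT1, 24.2 and 47.1 TPM, 0.93) had similar levels and ratios. Their relative GSPT2 was near the limit at 0.608 and 1.86 TPM (0.83) and passed the filter only through the AS level. The poly(A) binding proteins PABPC1 (209 and 319 TPM, 0.61) and PABPC4 (54.7 and 76.9 TPM, 0.48) had smaller ratios. ETF1 was under 2-fold relative to the median of all genes (0.81). The median GC content of the list was 44.8%. In the GC group that holds this value, from 42.8% to 45.2%, the coding genes had a median log2 ratio of 0.77. The part of base composition was not tested.

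The median of the decapping, deadenylation and decay list was 0.96. Of its 11 genes measured, 5 passed 2-fold upwards and none downwards, beside 16.5% and 2.17% of all measured genes. The count was 1 with a pseudocount of 5 TPM, in FPKM, after centring on the median of all genes and after trimmed mean scaling, and 4 with a mean of at least 5 TPM. The helicase DDX6 was at 0.774 TPM under SC and 3.32 TPM under AS (1.28); its mean passed the filter only through the AS level, so its place among the 5 is no result. CNOT7, a deadenylase, was at 18.7 and 45.8 TPM (1.25), and PATL1, a decapping activator, at 6.91 and 16.0 TPM (1.11). After centring CNOT7 was at 0.96 and PATL1 at 0.82, both under 2-fold. The median GC content of the list was 45.5%, over the 10 genes with a value.

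Of the 16 transcripts described as targets of the pathway, 3 were at least 2-fold higher in AS, none was 2-fold lower and 13 lay between. A ratio above 0 was found for 14 of the 16, beside 66.2% of all measured genes. The 3 past 2-fold are a share near the 16.5% of all measured genes that passed 2-fold upwards, and 1 of them did after centring. The median was 0.69, or 0.40 above all measured genes. The largest ratios were those of the snoRNA host transcripts SNHG1 (24.1 TPM under SC and 115 TPM under AS, 2.20) and GAS5 (126 and 299 TPM, 1.24) and of the stress factor ATF3 (2.88 and 7.79 TPM, 1.18). In coverage SNHG1 alone was past 2-fold (1.91), with GAS5 at 0.90 and ATF3 at 0.88. The targets with a ratio below 0 were chosen after their values were seen. They were the stress regulator ATF4 (738 and 604 TPM, -0.29) and the uridine phosphorylase UPP1 (293 and 158 TPM, -0.89). UPP1 was at -0.16 in coverage and level in its assembled locus (293 and 293 TPM, -0.0013). The level of a target also depends on its synthesis, which these libraries do not measure apart.

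**Figure D5:**
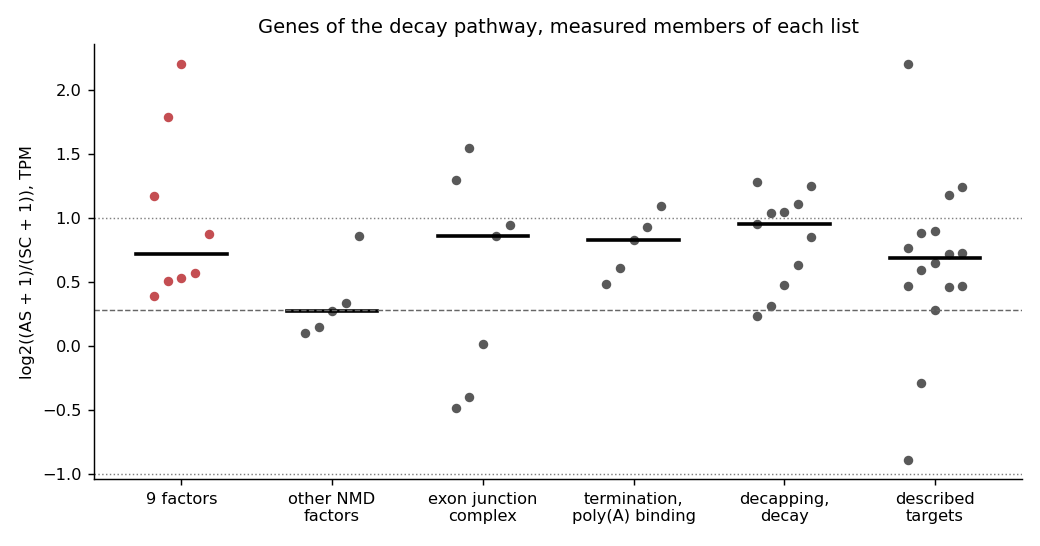
The log2 ratio in TPM of each measured gene (points) and the median (bars) in the 9 factors and the 5 pathway lists; the dashed line is the median of all 13669 measured genes and the dotted lines are 2-fold in each direction. The median of the other decay factors (0.27) lies on the dashed line (0.28), those of the other groups lie above it, and no gene lies below the lower dotted line.

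Both libraries showed epithelial keratins, with KRT18 at 558 TPM under SC and 479 TPM under AS and KRT8 at 486 and 345 TPM. Of the other epithelial genes, EPCAM was at 0.604 and 1.84 TPM, and CDH1, the epithelial cadherin, stood at only 0.0074 and 0.014 TPM. KRT19 was listed at 0 in both, and the lung lineage genes NKX2-1 and SFTPB stood below 0.1 TPM in both libraries. The lung gene NAPSA was measured, at 1.62 TPM under SC and 1.04 TPM under AS. Of 10 markers of immune, endothelial and mesenchymal cells that matched a row, 3 were listed at 0 in both libraries, PTPRC, CD3E and COL1A2. LYZ, VWF, CDH5, PDGFRB and DCN stood at 0.149 TPM or less in each library. Only 2 were measured, CD68 (285 and 203 TPM) and COL1A1 (26.3 and 15.8 TPM). The list summed to 311 TPM under SC and 219 TPM under AS, nearly all of it from CD68 and COL1A1, and its part in the results was not tested. In bulk RNA, fewer cells that carry a transcript and less of it per cell cannot be told apart.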

How the data were processed

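RNA-seq of 1 SC and 1 AS library of NCI-H2030 was analysed from 1 table per library. Per the file headers, the authors deposited a coverage signal, an FPKM and a TPM value per row. The authors' TPM column, per the file headers scaled for transcript length and library size, is treated as a score because annotated genes and loci assembled from the reads share it and were scaled separately. No aligner or counter is named in the sources used here. Per the labels' protocols the library kit was directional. The submitters' processing notes name GRCh38 and hg38, whereas none of the 9 gene starts is the GRCh38 start in GENCODE release 29; the coordinates are printed as deposited and their build was not established. Read counts are not given, so depth beyond the coverage per FPKM is unknown and no counting interval was computed.

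Rows of 1 symbol were summed (57789 annotated rows in SC, 57787 in AS). Ratios used a pseudocount of 1 on TPM, assembled locus TPM and FPKM and 0.1 on scaled coverage, a minimum mean of 1 TPM, and 2-fold as the call. The assembled locus of a gene was the same-strand locus with the longest overlap. GC content was pooled over the GENCODE transcripts of a gene, matched by identifier. Named genes were the 9 factors, all measured genes of the lists of other factors, exon junction complex and termination, and the 3 with the largest absolute ratio in each of the other lists. The list of other factors has 1 further gene that is not reported here and is left out of every list count and median. Members and lists were chosen with earlier results of these data known. Alternatives were other pseudocounts, filters, columns and scalings. The calculations were tested on simulated data (Python 3.11.15, numpy 2.4.6, pandas 2.3.3).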

Additional observations from a re-analysis of the deposited data

How the results depend on the processing

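No paired analysis was possible because each group has 1 library, and no library could be left out. The count of 3 factors at least 2-fold higher was 2 or 3 under the other settings except in the assembled loci, where it was 1 (UPF3B), and no factor was 2-fold lower under any setting run. UPF2 was under 2-fold in the assembled loci (0.88), as was UPF3A (0.70), which also fell under 2-fold with a pseudocount of 5 TPM (0.87), in FPKM (0.98), after centring (0.89) and after trimmed mean scaling (0.84). SMG1 passed 2-fold with a pseudocount of 0.1 TPM (1.59) and in coverage (1.34). SMG6 turned negative in coverage (-0.18) and in the assembled loci (-0.17). The median of the factors was 0.44 after centring on the median of all genes and 0.40 after trimmed mean scaling, and between 0.59 and 0.79 under the others. Over the 5 pathway lists, 11 of the measured genes were at least 2-fold higher in TPM, beside 16.5% of all measured genes. That count includes DDX6, which passed the filter only through the AS level. With a mean of at least 5 TPM, which leaves DDX6 out, the count was 10. It was 5 with a pseudocount of 5 TPM, 5 in FPKM, 4 after centring and 3 after trimmed mean scaling, and between 10 and 14 otherwise. No pathway gene was 2-fold lower except 1 (UPP1) after centring and 1 after trimmed mean scaling. The median of the other decay factors was -0.0017 in the assembled loci, -0.0091 after centring and -0.075 after trimmed mean scaling. The cause of these shifts was not tested. The share of all measured genes past 2-fold was computed in TPM, coverage and the assembled loci only. Counts under the other settings have no such share beside them. Read counts are not given, so levels near 1 TPM, such as those of SMG1 and GSPT2, carry an unknown counting error.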
